A study of Mus musculus with 8 samples.

Results

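Collagens are the trimeric proteins that carry load in the lung's interstitium, vessels and airways and that form the sheet of its basement membranes. Here the collagen chain genes were compared between lungs of 4 Fra-2 transgenic mice and 4 wild type mice, to ask which chains differ and how they vary from mouse to mouse. A gene was taken as a collagen chain where its symbol on the array platform was Col, a number, a and a number. This gave 72 of 62976 spots and 42 of 20864 named genes, each read by the brightest of its spots over all 8 arrays. The transgenic mice are labelled as over-expressing Fra-2, an AP-1 transcription factor encoded by Fosl2, and the others as wild type. Both groups are C57BL/6 mice aged 8 weeks, and total RNA from each mouse's lung went on 1 single-colour Agilent array. The promoter that drives the transgene is not given in the sources used here. Values are log2 of the authors' normalised intensity. A floor of 4.74, the median of all spots, marks dim signals, and 26 of the 42 genes had a mean above it.

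Fibrillar collagens build rope-like fibrils, of which type I and type III are the bulk in lung, with type V chains at the fibril core. Type IV chains form the network of basement membranes, where α1 and α2 chains are found in nearly all membranes and α3, α4 and α5 chains in those of the alveolus and the kidney filter. FACIT collagens decorate fibrils, beaded-filament type VI collagens link cells to matrix, network-forming type VIII and X chains make lattices, and transmembrane collagens sit in cell surfaces. In bulk lung, fewer cells of a type and less RNA per cell cannot be told apart.

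Col4a1 and Col4a2 lie head to head and start close together. Their windows are shown because this pair had the largest positive differences in its class, and that of Col6a1 because it alone among the matched collagen windows held the 7-base AP-1 site. All are RefSeq promoter windows of build GRCm38.p6, from 250 bases before to 50 after the annotated start, written 5′ to 3′. RefSeq windows matched 34 of the 42 genes, with 37 windows in all. The 8 genes with no window, which were not searched, include Col1a1, Col5a2 and Col12a1. Capitals mark GC boxes (GGGCGG or CCGCCC) and CCAAT boxes (CCAAT or ATTGG) in the Col4 windows and the AP-1 site (TGACTCA or TGAGTCA) in the Col6a1 window.
Col4a1 (chr8:11312777-11313076, minus strand): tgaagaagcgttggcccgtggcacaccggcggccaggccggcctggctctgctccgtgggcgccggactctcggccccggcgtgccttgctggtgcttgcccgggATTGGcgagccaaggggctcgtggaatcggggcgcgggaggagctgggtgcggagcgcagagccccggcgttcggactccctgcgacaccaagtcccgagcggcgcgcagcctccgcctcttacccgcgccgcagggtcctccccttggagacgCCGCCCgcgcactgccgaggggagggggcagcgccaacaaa
Col4a2 (chr8:11312555-11312854, plus strand): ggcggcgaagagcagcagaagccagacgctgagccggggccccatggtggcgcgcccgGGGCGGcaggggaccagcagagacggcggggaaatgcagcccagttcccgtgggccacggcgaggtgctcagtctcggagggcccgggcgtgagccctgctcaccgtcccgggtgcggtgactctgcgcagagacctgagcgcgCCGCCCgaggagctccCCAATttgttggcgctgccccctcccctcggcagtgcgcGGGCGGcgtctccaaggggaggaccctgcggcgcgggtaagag
Col6a1 (chr10:76725995-76726294, minus strand): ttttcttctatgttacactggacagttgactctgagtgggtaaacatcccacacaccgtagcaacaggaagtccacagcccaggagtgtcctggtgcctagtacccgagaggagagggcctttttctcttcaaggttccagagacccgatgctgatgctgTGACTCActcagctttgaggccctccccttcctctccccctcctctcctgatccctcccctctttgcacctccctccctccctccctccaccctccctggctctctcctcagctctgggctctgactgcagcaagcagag
The Col4a1 and Col4a2 windows run on opposite strands and share 78 bases. Both strands were searched. Within a window the marked matches do not overlap, but 1 GC box lies in the shared bases and is marked in both windows, as CCGCCC in that of Col4a1 and as GGGCGG in that of Col4a2. An AP-1 site was found in 1 of 37 collagen windows (2.7%) and in 5.2% of all 32851 windows. GC boxes were in 23 of the 37 (62.2%, against 35.7% of all windows), CCAAT boxes in 13 (35.1%, against 37.4%) and TATA boxes (TATAAA or TTTATA) in 5 (13.5%, against 13.6%). A match describes letters in a window and says nothing of binding.

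All 8 arrays came with nearly the same distribution of values. Mouse 4 of each group correlated least with its own group, with a mean r of 0.971 for transgenic mouse 4 and 0.966 for wild type mouse 4. Lung markers Sftpc, of alveolar type 2 cells, and Scgb1a1, of club cells, stood at 16, the top of the log2 scale, in all 8 mice. Fosl2 had 2 spots whose differences had opposite signs. The brighter had levels of 10.03, 9.42, 9.38 and 10.62 in transgenic mice and of 10.64, 10.12, 10.68 and 11.01 in wild type mice. The dimmer had levels of 6.35, 6.98, 6.68 and 7.85 in transgenic mice and of 3.44, 4.41, 4.65 and 5.58 in wild type mice. What each spot reads of the transcript is not known here, so neither alone checks the labels.

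No collagen gene passed the test over all genes. Of the 42, 0 had a limma adjusted p under 0.05, where 45 of 20864 genes (0.216%) had. The smallest adjusted p among them was 0.319, for Col5a2. At an unadjusted limma p under 0.05 there were 7 collagen genes (16.7%, against 9.15% of all genes). Of these 6 were higher in transgenic lung (14.3%, against 5.33%) and 1 was lower (2.38%, against 3.82%). The 6 were Col1a1, Col5a2, Col4a1, Col4a2, Col6a4 and Col22a1, and the last 2 lay under the floor in all 8 mice. The lower one was Col12a1. Groups that did not overlap were found for 4 collagen genes (9.52%, against 6.53%), 3 higher (7.14%, against 3.99%) and 1 lower (2.38%, against 2.54%). Over the 42 genes 20 differences were positive and 22 negative, with a median of -0.07, beside 0.01 over all genes. By class, the median difference was 0.16 for the 11 fibrillar genes, 0.10 for the 6 basement membrane genes, 0.12 for the 5 beaded filament genes, -0.31 for the 9 FACIT genes, -0.34 for the 3 network genes and -0.37 for the 4 transmembrane genes. Since no gene passed, these medians are a description.

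**Figure D1:**
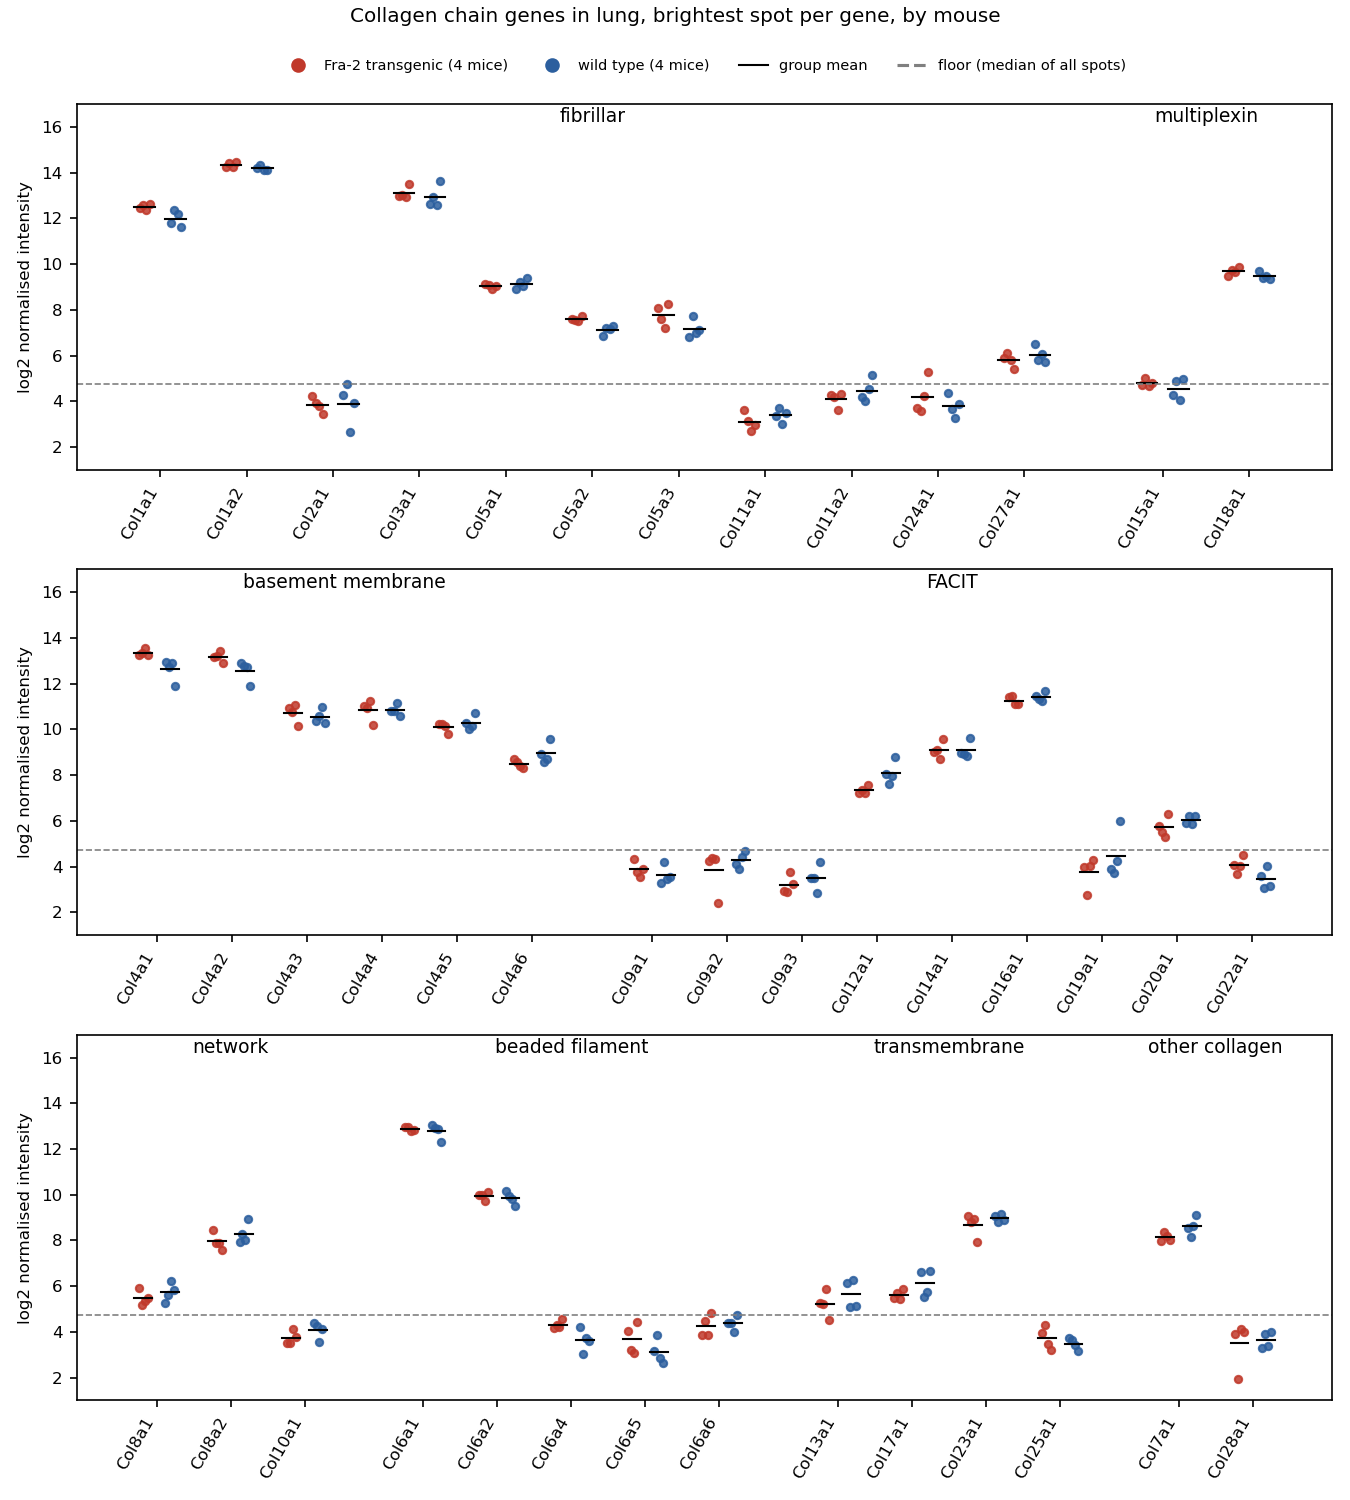
Log2 normalised intensity of each of the 42 collagen chain genes, by class, in 4 Fra-2 transgenic mice (red, left) and 4 wild type mice (blue, right), with group means as bars and the floor of 4.74 dashed. The transgenic points stand clear of the wild type points for Col1a1, Col5a2, Col4a1 and Col12a1, and 16 genes have a mean under the floor.

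Type I collagen, the main fibril former, is a trimer of Col1a1 and Col1a2 products. Col1a1 had levels of 12.45, 12.60, 12.38 and 12.61 in transgenic mice and of 11.79, 12.36, 12.17 and 11.64 in wild type mice. The groups did not overlap, although wild type mouse 2 came close to transgenic mouse 3. Col1a1 averaged 12.51 ± 0.11 in transgenic mice and 11.99 ± 0.33 in wild type mice (SD, n = 4 each). The log2 difference was 0.52 (SE 0.18, limma adjusted p = 0.432). Its exact two-sided permutation p was 0.0286, the smallest that 4 against 4 allows. Col1a2 had levels of 14.26, 14.41, 14.23 and 14.49 in transgenic mice and of 14.21, 14.32, 14.10 and 14.11 in wild type mice. Its groups overlapped, and its difference of 0.16 had a 95% interval from -0.11 to 0.43. Col3a1, the chain of type III collagen, had levels of 12.99, 13.01, 12.93 and 13.52 in transgenic mice and of 12.62, 12.92, 12.59 and 13.62 in wild type mice. Mouse 4 was the highest in each group, and the difference of 0.18 had an interval from -0.41 to 0.76.

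The 3 type V chains, which nucleate fibrils, did not go together. Col5a2 had levels of 7.60, 7.54, 7.51 and 7.73 in transgenic mice and of 6.86, 7.20, 7.15 and 7.30 in wild type mice. The groups did not overlap, and the difference was 0.47 (SE 0.13, limma adjusted p = 0.319, exact two-sided permutation p = 0.0286). With 1 mouse left out, or both mice numbered 4, and under the other settings run, its difference stayed between 0.38 and 0.53. Col5a1 had levels of 9.12, 9.07, 8.90 and 9.04 in transgenic mice and of 8.90, 9.20, 9.03 and 9.40 in wild type mice. Its difference was -0.10, with an interval from -0.42 to 0.22. Col5a3 averaged 7.79 ± 0.49 in transgenic mice and 7.16 ± 0.39 in wild type mice (SD, n = 4 each), a difference of 0.64 with overlapping groups. Col27a1, a fibrillar chain of cartilage and other tissues, averaged 5.81 in transgenic mice and 6.02 in wild type mice. The cartilage chains Col2a1, Col11a1 and Col11a2, and Col24a1, had means under the floor.

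Because the 2 type I chains share 1 trimer, their log2 ratio was taken within each mouse. Ratios between different spots have no absolute meaning, so only their change between groups is read. The Col1a1 to Col1a2 ratio was -1.81, -1.81, -1.85 and -1.88 in transgenic mice and -2.42, -1.96, -1.93 and -2.47 in wild type mice. It was higher in every transgenic mouse, by 0.36 on average, and it spread far less among transgenic mice (SD 0.03) than among wild type mice (SD 0.29). The Col5a1 to Col5a2 ratio was 1.52, 1.53, 1.39 and 1.30 in transgenic mice and 2.05, 1.99, 1.88 and 2.10 in wild type mice. It was lower in every transgenic mouse, by 0.57 on average, a gap wider than the range of either group. Col6a1 to Col6a2, of type VI collagen, differed by -0.03, with overlapping groups.

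All 21 pairs of chains of 1 type with both means above the floor were compared this way, a comparison added after the values were seen. In 9 pairs the groups did not overlap, each with an exact two-sided permutation p of 0.0286. The Benjamini-Hochberg adjusted p over the 21 was 0.0667, so none passed. As 0.0286 is the smallest p that 4 against 4 allows, no pair could have passed with 9 separated. The share of separated ratios among pairs of other genes was not computed, so 9 cannot be called many or few. Of the 9, 7 joined Col4 chains. They were Col4a1 and Col4a2 each against Col4a4, Col4a5 and Col4a6, and Col4a5 against Col4a6. In these 7 the transgenic ratio was higher by 0.28 to 1.19. Without wild type mouse 4 the 6 ratios that hold Col4a1 or Col4a2 differed by 0.41 to 0.73, and the 4 of them against Col4a5 or Col4a6 were smaller by more than 1.5 times. Without both mice numbered 4 the 6 differed by 0.31 to 0.69. Each ratio used the brightest spot of its genes. A dimmer Col4a6 spot, also above the floor, read 5.79, 6.05, 5.80 and 5.62 in transgenic mice. In wild type mice that spot read 6.03, 6.31, 5.71 and 6.21. With it the Col4a5 to Col4a6 ratio overlaps between groups, so that separation holds for the brightest spot only. The pairs share members and are not independent.

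**Figure D2:**
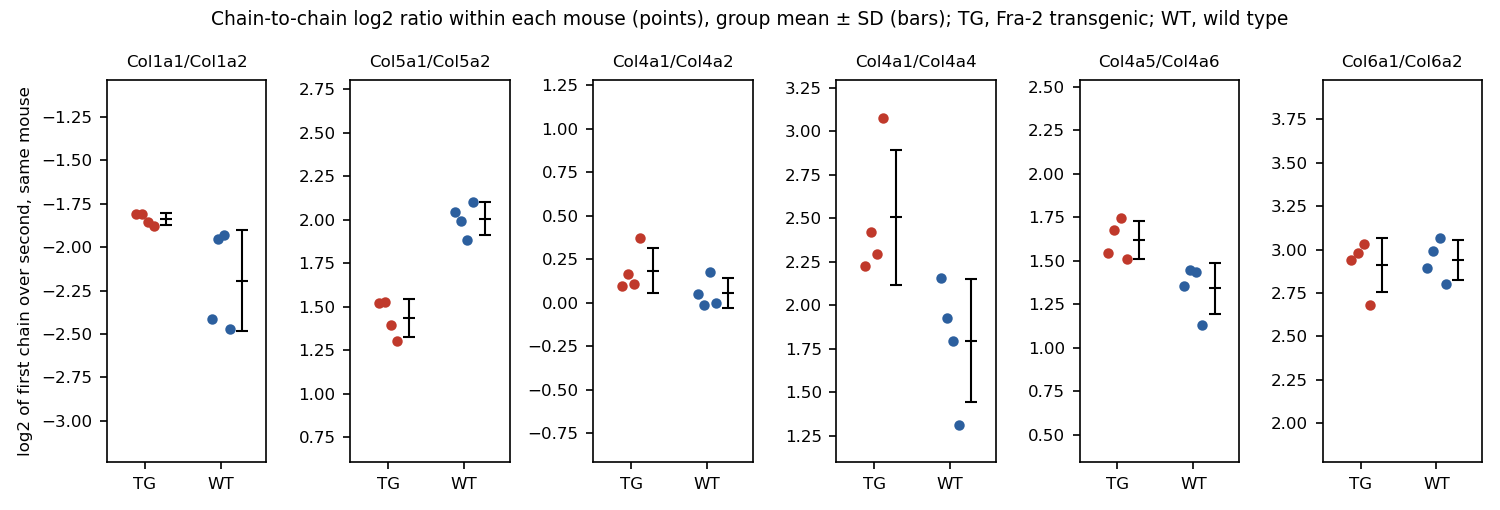
Log2 ratio of 2 chains of the same collagen type within each mouse for 6 of the 21 pairs, Fra-2 transgenic (red) left of wild type (blue), with group mean ± SD (n = 4). Each gene is read by its brightest spot. All panels span the same log2 range around their own centre, and the groups separate for Col1a1/Col1a2, Col5a1/Col5a2, Col4a1/Col4a4 and Col4a5/Col4a6 but not for Col4a1/Col4a2 or Col6a1/Col6a2.

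Among basement membrane chains, Col4a1 and Col4a2, the ubiquitous type IV pair, were higher in transgenic lung at the unadjusted level, and the other 4 were not. Col4a1 had levels of 13.26, 13.36, 13.55 and 13.27 in transgenic mice and of 12.96, 12.74, 12.93 and 11.88 in wild type mice. The groups did not overlap, and wild type mouse 4 lay far under the other 3. Col4a1 averaged 13.36 ± 0.13 in transgenic mice and 12.63 ± 0.51 in wild type mice (SD, n = 4 each). The difference was 0.73 (SE 0.24, limma adjusted p = 0.419, exact two-sided permutation p = 0.0286). Without wild type mouse 4 the difference was 0.48, with an unadjusted limma p of 0.00529 and an adjusted p of 0.281. Col4a2 had levels of 13.17, 13.20, 13.44 and 12.90 in transgenic mice and of 12.92, 12.75, 12.75 and 11.88 in wild type mice. Transgenic mouse 4 and wild type mouse 1 overlapped by little, and wild type mouse 4 was again the lowest. Its difference was 0.60 (SE 0.24, limma adjusted p = 0.505; exact two-sided permutation p = 0.0571), and 0.37 without wild type mouse 4.

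Col4a1 is the one collagen gene with 10 spots, all given the same accession. In all 10 the groups did not overlap, with differences from 0.70 to 0.76. Within a mouse the 10 spots had an SD of 0.08 to 0.10, against an SD of 0.16 among transgenic mice and 0.52 among wild type mice for their mean. The spread between mice therefore exceeded that between spots. Whether the 10 are repeats of 1 probe is not recorded in the table used.

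**Figure D3:**
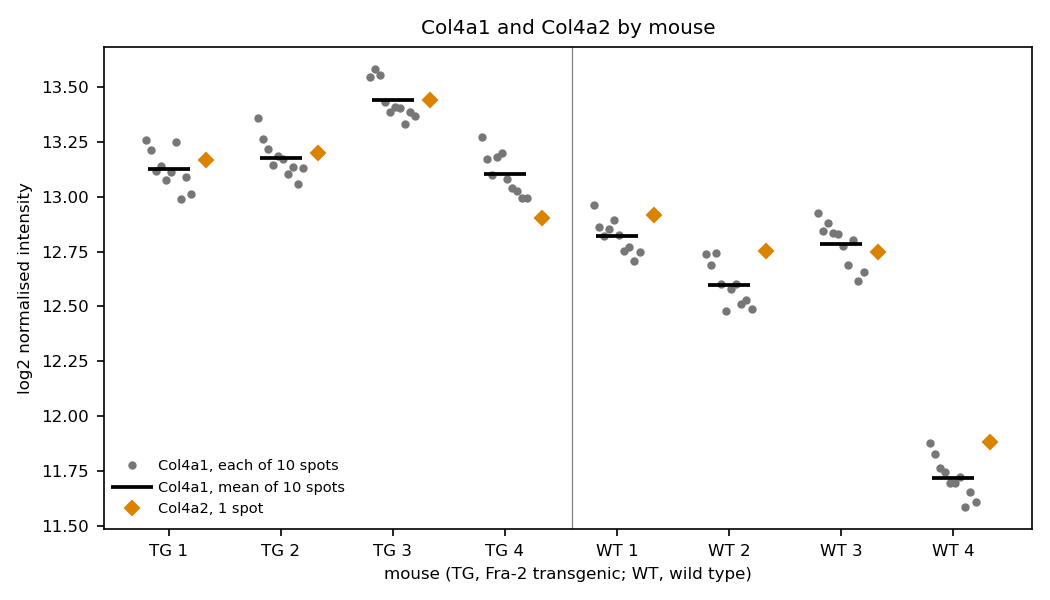
Log2 normalised intensity of the 10 Col4a1 spots (grey), their mean (bar) and the single Col4a2 spot (orange) in each of 4 Fra-2 transgenic (TG) and 4 wild type (WT) mice. All 10 spots lie higher in each transgenic mouse than the same spots in any wild type mouse, and wild type mouse 4 is lowest for both genes.

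Col4a3 and Col4a4, chains of the alveolar membrane, did not differ between groups beyond their spread. Col4a3 had levels of 10.93, 10.74, 11.05 and 10.13 in transgenic mice and of 10.35, 10.58, 10.96 and 10.26 in wild type mice. The difference was 0.18, with an interval from -0.38 to 0.73. Col4a4 had levels of 11.03, 10.94, 11.25 and 10.20 in transgenic mice and of 10.81, 10.82, 11.13 and 10.57 in wild type mice. Mouse 4 was the lowest of its group for both genes in both groups. Its 2 dimmer spots did not follow the bright one. In wild type mouse 4 they read 9.26 and 8.64, the highest of the 8 mice, and in transgenic mouse 4 they read 6.93 and 5.81, the lowest, so the sign of the Col4a4 difference turns with the spot (0.03 for the brightest, -0.66 and -0.86 for the others). Col4a5 had levels of 10.24, 10.26, 10.14 and 9.80 in transgenic mice and of 10.26, 10.04, 10.14 and 10.73 in wild type mice. Col4a6, a chain of smooth muscle and epithelial membranes, had levels of 8.70, 8.58, 8.39 and 8.30 in transgenic mice and of 8.90, 8.59, 8.71 and 9.59 in wild type mice. For both X-linked genes mouse 4 was the lowest transgenic and the highest wild type mouse. The difference was -0.18 for Col4a5 and -0.46 for Col4a6 (SE 0.23, limma adjusted p = 0.599).

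Read by the brightest spot of each gene, chains whose genes lie next to each other kept the steadiest ratio over the 8 mice. Among the 21 pairs of chains, 4 are neighbours in RefSeq's gene order, with no protein-coding gene between them. They are Col4a1 and Col4a2 on chromosome 8, Col4a3 and Col4a4 on chromosome 1, Col4a5 and Col4a6 on the X chromosome, and Col6a1 and Col6a2 on chromosome 10. Their within-mouse log2 ratios had SDs over the 8 mice of 0.12, 0.12, 0.19 and 0.13. The other 17 pairs, all on different chromosomes, had SDs from 0.27 to 0.90. Of these the lowest was Col1a1 with Col1a2 and the highest Col4a1 with Col4a6. An SD over all 8 mice also holds the shift between groups. Col5a1 with Col5a2, on different chromosomes, had an SD of 0.32 over the 8 mice. Within groups its SDs were 0.11 in transgenic and 0.09 in wild type mice. Those of the neighbours Col4a1 and Col4a2 were 0.13 and 0.09. The steadiness of Col4a3 with Col4a4 holds for the brightest Col4a4 spot only. In wild type mouse 4 Col4a3 read 10.26, while the dimmer Col4a4 spots read 9.26 and 8.64, their highest of the 8 mice. With either of these spots the ratio was not steady. The split between neighbours and other pairs is a description of 8 arrays, chosen after the values were seen. All pairs share arrays and normalisation.

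Col18a1 and Col15a1, the multiplexins of the basement membrane zone, had groups that overlapped. Col18a1, the source of endostatin, had levels of 9.48, 9.74, 9.64 and 9.86 in transgenic mice and of 9.71, 9.37, 9.50 and 9.34 in wild type mice, a difference of 0.20 with an interval from -0.12 to 0.52. Col15a1 lay around the floor, at 4.70, 5.02, 4.65 and 4.79 in transgenic mice and at 4.28, 4.89, 4.05 and 4.96 in wild type mice.

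Of the FACIT chains, Col12a1, which binds type I fibrils, was lower in every transgenic mouse. Its levels were 7.23, 7.37, 7.23 and 7.57 in transgenic mice and 8.03, 7.62, 7.97 and 8.78 in wild type mice. The groups did not overlap, though transgenic mouse 4 and wild type mouse 2 nearly met. The difference was -0.75 (SE 0.24, limma adjusted p = 0.388; exact two-sided permutation p = 0.0286). Without wild type mouse 4, the highest, it was -0.52, and over all settings run it lay between -0.91 and -0.52. Col14a1, also bound to type I fibrils, averaged 9.09 ± 0.36 in transgenic mice and 9.09 ± 0.35 in wild type mice (SD, n = 4 each). Col16a1 differed by -0.17 and Col20a1 by -0.31. The type IX chains Col9a1, Col9a2 and Col9a3, of cartilage, and Col19a1 and Col22a1 had means under the floor. Col22a1 read 4.08, 3.68, 4.04 and 4.50 in transgenic mice and 3.59, 3.07, 4.01 and 3.17 in wild type mice, all under the floor, so no fold is given.

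Col6a1 and Col6a2, chains of the beaded filaments that surround cells, had overlapping groups. Col6a1 had levels of 12.95, 12.97, 12.77 and 12.81 in transgenic mice and of 13.04, 12.92, 12.87 and 12.32 in wild type mice, a difference of 0.09 with an interval from -0.31 to 0.48. Col6a2 had levels of 10.01, 9.99, 9.73 and 10.13 in transgenic mice and of 10.15, 9.93, 9.80 and 9.52 in wild type mice, a difference of 0.12 with an interval from -0.26 to 0.49. Col6a4, Col6a5 and Col6a6 lay under the floor on average. Col6a4 read 4.17, 4.29, 4.21 and 4.58 in transgenic mice and 4.20, 3.03, 3.74 and 3.61 in wild type mice, and its second spot, dimmer still, was higher in every transgenic mouse, with means of 3.78 in transgenic mice and 2.80 in wild type mice. Col6a3 is not analysed here.

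All network, transmembrane and anchoring chains but Col25a1 had negative differences, and none reached an unadjusted limma p under 0.05. Of the network chains, Col8a1 differed by -0.24, Col8a2, a chain of vascular and corneal lattices, by -0.34 and Col10a1, a marker of growth cartilage, by -0.35, the last under the floor. Col17a1, the hemidesmosome collagen of basal epithelial cells, averaged 5.62 ± 0.21 in transgenic mice and 6.14 ± 0.58 in wild type mice (SD, n = 4 each). Col7a1, which forms anchoring fibrils under such cells, averaged 8.15 ± 0.18 in transgenic mice and 8.61 ± 0.38 in wild type mice (SD, n = 4 each), a difference of -0.46 with an interval from -0.93 to 0.01. Col13a1 and Col23a1 differed by -0.45 and -0.29, and in both transgenic mouse 4 was the lowest of the 8. Col25a1 and Col28a1 lay under the floor. Of 21 dimmer spots of genes other than Col4a1, 2 had groups that did not overlap, 1 of Col6a4 and 1 of Col25a1. Among all genes, each read by its brightest spot, the groups did not overlap for 6.53%, so a few such spots are no sign of a difference. That Col25a1 spot read 3.95, 4.43, 4.44 and 3.86 in transgenic mice and 2.06, 3.55, 2.22 and 2.79 in wild type mice, with no overlap. The difference was 1.51, with a limma adjusted p of 0.208 over all named spots. Its exact two-sided permutation p of 0.0286 follows from the lack of overlap, for which the spot was picked, and adds no support. All 8 values were under the floor, and the other 3 Col25a1 spots had overlapping groups.

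**Figure D4:**
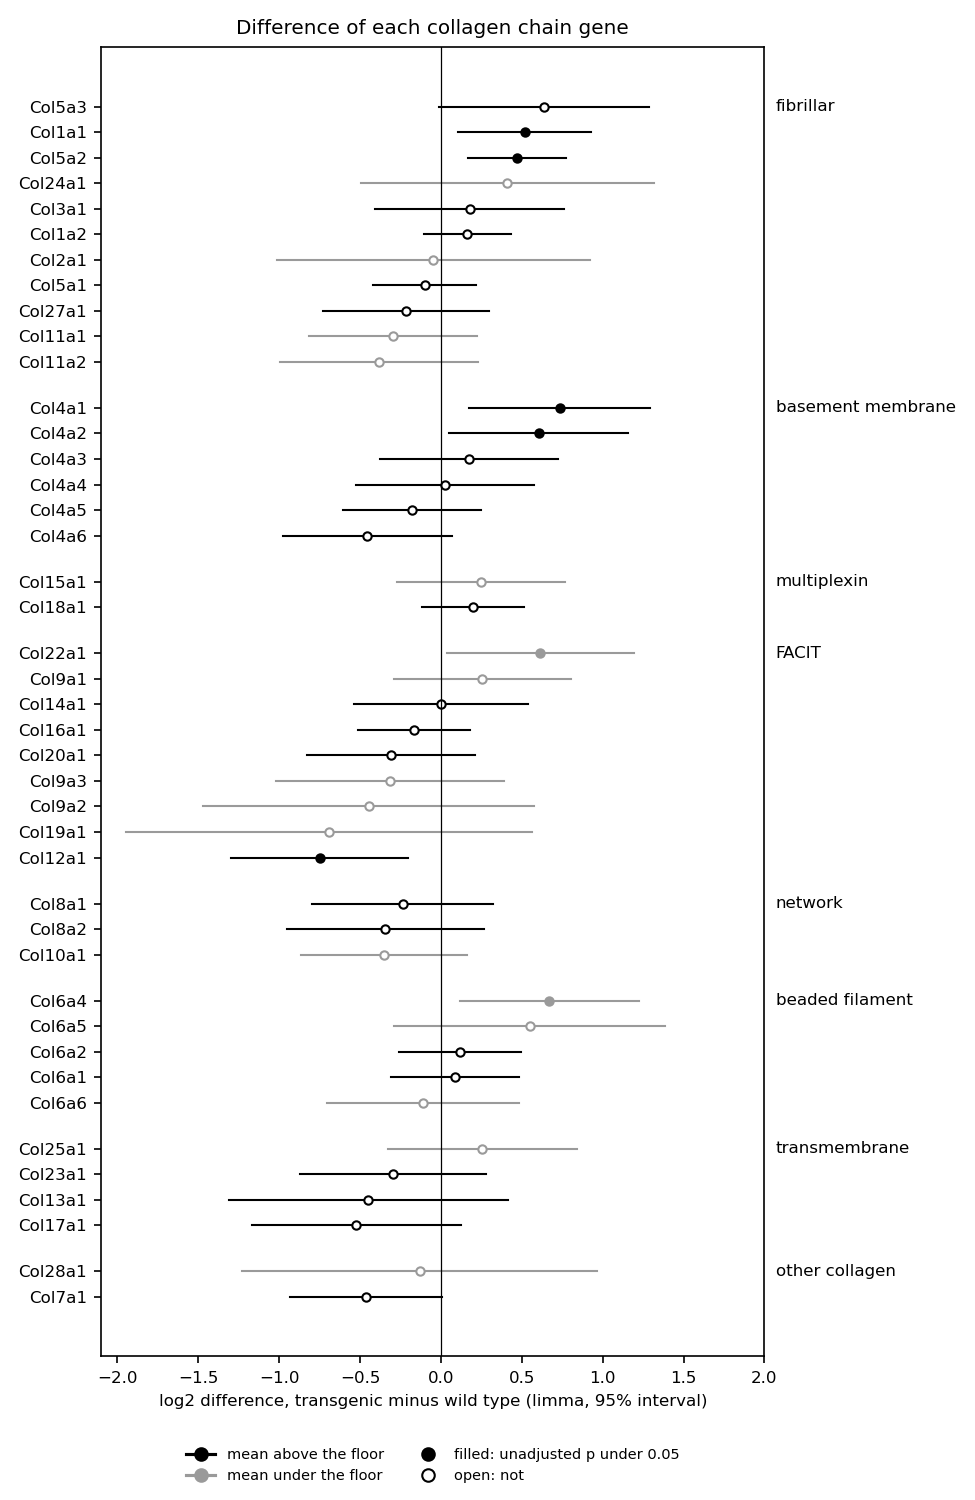
Log2 difference, Fra-2 transgenic minus wild type, for each collagen gene with its 95% limma interval, by class, with genes under the floor in grey and filled points at an unadjusted p under 0.05. Filled points lie in the fibrillar, basement membrane, FACIT and beaded filament classes, and differences run from -0.75 to 0.73 among genes above the floor.

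Mice numbered 4 set many of the extremes. Of the 26 genes above the floor, transgenic mouse 4 was the highest or lowest of its group for 21 (80.8%) and wild type mouse 4 for 21 (80.8%). Over all 14312 genes above the floor the shares were 72.2% and 73.5%. For 17 genes mouse 4 was the extreme in both groups, at the same end for 10 and at opposite ends for 7. It was the lowest of both groups for Col4a2, Col4a3, Col4a4 and Col27a1, and the highest of both for Col3a1, Col5a2, Col12a1, Col14a1, Col17a1 and Col20a1. For Col1a1, Col6a2 and Col18a1 it was the highest transgenic and the lowest wild type mouse. For Col4a5, Col4a6, Col8a2 and Col16a1 it was the lowest transgenic and the highest wild type mouse. Without both, no collagen gene passed and 5 of the 42 had an unadjusted limma p under 0.05. Col4a1 then differed by 0.51, Col4a2 by 0.46, Col5a2 by 0.48 and Col12a1 by -0.60, while Col1a1 differed by 0.37 with an unadjusted limma p of 0.0776.

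**Figure D5:**
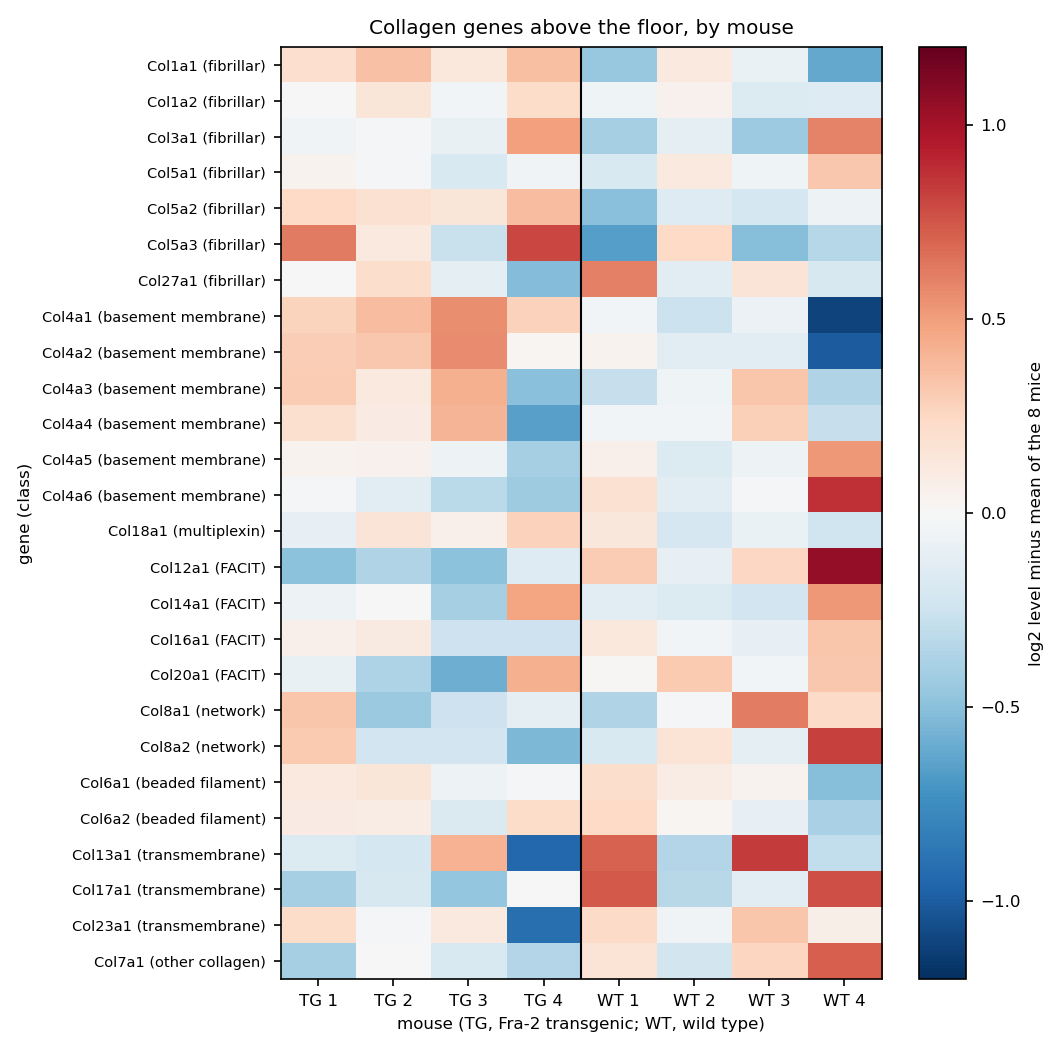
Log2 level minus the mean of the 8 mice for the 26 collagen genes above the floor, with 4 Fra-2 transgenic (TG) mice left of 4 wild type (WT) mice. By their brightest spots, Col4a1 and Col4a2 share a pattern across mice, as do Col4a3 with Col4a4 and Col4a5 with Col4a6. The columns of both mice numbered 4 hold most of the deep colours.

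Marker genes of the cells that make these chains were read beside them, and their part in the differences was not tested. Over all genes 52.4% of differences were positive. The shares of all genes at an unadjusted limma p under 0.05, to set beside the lists' counts, were 5.33% for higher and 3.82% for lower genes. For the fibroblast list, 4 differences were positive and 10 negative, 0 of 14 measured genes passed and 1 was lower at an unadjusted limma p under 0.05, with Pi16, an adventitial marker, at -0.46. Its summed intensity ran from 89900 to 117542 in transgenic mice and from 96972 to 113766 in wild type mice, and none of its markers was under the floor in all mice. The sums of these lists add linear intensities, so the brightest genes weigh most and a sum does not stand for its whole list. In the fibroblast list the brightest was Inmt, at a mean of 15.88, with Mfap4 next at 14.15. Of 10 endothelial genes 8 were positive and 0 passed, with 3 (30%) higher (Aplnr by 1.56, Sox17 by 0.87 and Cxcl12 by 1.12) and 1 (10%) lower (Apln, by -1.03) at an unadjusted p under 0.05. Their sum ran from 50689 to 84255 in transgenic mice and from 50098 to 60477 in wild type mice, and in both groups mouse 4 had the lowest sum. The endothelial gene Pecam1 was at 9.51 in wild type mouse 4 and at 10.43 to 10.81 in the other wild type mice, while Cdh5, also endothelial, was at 13.35 there, the highest of the 8. Alveolar type 1 genes, 0 of 8 past and 7 negative, summed to 110871 to 168722 in transgenic mice and to 139747 to 164782 in wild type mice, lowest in mouse 4 of each group. Rtkn2, with the smallest p of that list, differed by -0.39.

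Smooth muscle genes were negative in 8 of 8, with 0 passed and 3 (37.5%) lower at an unadjusted p under 0.05 (Mylk by -0.53, Cnn1 by -0.48 and Tagln by -0.31). They summed to 28774 to 36008 in transgenic mice and to 36269 to 46694 in wild type mice. Mesothelial genes, 0 of 5 past and 4 positive, had 2 (40%) higher, Msln by 0.71 and Upk1b by 0.54, at an unadjusted limma p under 0.05. Lrrn4 differed by 0.59, Upk3b by 0.07 and Wt1 by -0.21. The 5 genes summed to 9552 to 15309 in transgenic mice and to 6309 to 8975 in wild type mice. That sum is mostly Msln, at a mean of 12.99, with Upk1b next at 8.90. Of 9 basal and squamous epithelial genes 1 rose, Krt14, by 2.79 (limma adjusted p = 0.0105), a call lost with the replicate block (adjusted p = 0.142), without both mice numbered 4 (adjusted p = 0.0853) and, just past the threshold, without wild type mouse 2. At an unadjusted limma p under 0.05, 5 of the 9 (55.6%) were called, with Krt14, Krt15 (0.75) and Krt5 (0.82) higher and Sprr1a (-1.08) and Trp63 (-0.52) lower. Dim signal limits some of these. Krt5 had a mean of 4.67, under the floor, and Sprr1a averaged 4.58 in transgenic mice, also under it. Krt14 averaged 4.78 in wild type mice, close to the floor. Krt5 was added to the named genes after its value was seen. The sum of the 9 ran from 1907 to 2635 in transgenic mice and from 2511 to 3165 in wild type mice, and Dsg3 and Krt6a were under the floor in all mice. This sum is mostly Trp63, at a mean of 11.06, with Krt15 next at 6.48. Cardiac muscle genes, 0 of 8 past and 8 of 8 negative, had 2 (25%), Nppa (-1.63) and Myh7 (-0.97), lower at an unadjusted limma p under 0.05. They summed to 13807 to 60754 in transgenic mice and to 37678 to 86381 in wild type mice. Of 12 cartilage genes 0 passed, with Chad, of the smallest p, at -0.39, and Matn1, Matn3, Cnmd and Ucma were under the floor in all mice. Schwann cell genes, 0 of 4 past and Mbp at -0.12, summed to 3099 to 3574 in transgenic mice and to 3042 to 3974 in wild type mice.

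Among the genes that process collagen, 1 of 13 procollagen-processing and crosslinking genes passed the test. Adamts14, a protease that trims the amino end of fibrillar procollagens, had levels of 7.34, 7.39, 7.35 and 7.14 in transgenic mice and of 8.36, 8.76, 9.38 and 9.34 in wild type mice. Every transgenic mouse lay under every wild type mouse. It fell by 1.65 on the log2 scale, a 3.15-fold lower level (SE 0.23, limma adjusted p = 0.0449). Leaving out single mice ended the call, at adjusted p-values of 0.0944 to 0.151, in every case but wild type mouse 1 (adjusted p = 0.0249). It was also lost with the replicate block (adjusted p = 0.209), without both mice numbered 4 (adjusted p = 0.151) and with the mean of its spots, where the difference was -1.25 (adjusted p = 0.192). In the same list Adamts3, a sister protease under the floor, differed by -1.07 and Loxl4, a lysyl oxidase, by 0.57. With Adamts14 they made 3 of 13 at an unadjusted limma p under 0.05 (23.1%, against 9.15% of all genes). Of 18 hydroxylases, chaperones and other modifiers 0 passed and 2 were lower at an unadjusted limma p under 0.05 (11.1%, against 3.82% of all genes). These were the prolyl 4-hydroxylase subunits P4ha2 (-0.56) and P4ha1 (-0.28). Groups did not overlap for 4 of the 18 (22.2%, against 6.53% of all genes), lower for these 2 and higher for Crtap (0.31) and Ppib (0.21), both partners of collagen-modifying complexes, which were named after their values were seen. Of 13 basement membrane assembly genes 0 passed, with Pxdn, the peroxidase that crosslinks type IV collagen, higher by 0.34 at an unadjusted limma p of 0.0479. Of 10 collagen receptors 0 passed and 2 had an unadjusted limma p under 0.05 (20%, against 9.15% of all genes). These were Itga2 at 0.62 and Gp6, the platelet receptor, at -0.53. Of 8 fibril-associated proteoglycans 0 passed, and the smallest p was that of Prelp (-0.15, limma adjusted p = 0.897).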

How the data were processed

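The deposited table holds normalised intensity on a linear scale, 62976 spots by 8 arrays. How the authors corrected background and normalised is not stated in what was used here. The submitters' processing notes list limma 3.14.4 and R 2.15.1. Gene symbols came from the platform annotation and, collagen spots aside, were updated through RefSeq accessions. Log2 values without offset were fitted across all 20864 named genes with limma 3.58.1 under R 4.3.3, using group alone, moderated variances and Benjamini-Hochberg adjustment at 0.05. Python 3.11.15 and matplotlib 3.10.9 drew the figures. Differences are transgenic minus wild type. Precision is limited by there being 4 arrays a group, and the floor has no scanner flag behind it. The fit was tested on simulated data with known shifts. That simulation drew independent normal noise for each gene, with no outlying mice, so it does not bear on the calls made here. Members, lists and naming rules were chosen with earlier results of these data known. Per-mouse values were to be given for type I, IV, VI, XV and XVIII chains, Col3a1, Col5a1, Col5a2 and any other collagen gene at an unadjusted p under 0.05 or without overlap. From each other list up to 4 genes at an unadjusted p under 0.05 were named, or the one of smallest p. The labels count separate animals as replicates. Alternatives covered scaling, offsets, spot choice, symbols, filters, variance models, array weights, a replicate block and mice left out.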

Additional observations from a re-analysis of the deposited data

Results flagged for a closer look

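Of 84 groups of 4 mice screened, 5 held a mouse that stood farther from the nearest of the others than Dixon's criterion allows, and chance flags about 1 in 20. Transgenic mouse 4 had a Col3a1 level of 13.52, above 12.93 to 13.01 in the other 3. Wild type mouse 4 had a Col4a2 level of 11.88, under 12.75 to 12.92, and a Col14a1 level of 9.61, above 8.86 to 8.97. Under the floor, where dim signal limits the reading, transgenic mouse 2 read 1.95 for Col28a1 and transgenic mouse 4 read 2.40 for Col9a2.

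A spot outside the rule, labelled Gm7455 on the platform and Col6a5 by its accession, read 7.40 in transgenic mouse 4. It read 3.74 to 4.90 in the other transgenic mice and 3.64 to 4.59 in wild type mice, while the spot labelled Col6a5 itself read 4.41 in transgenic mouse 4.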

How the results depend on the processing

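No collagen gene passed an adjusted p of 0.05 under any setting run. The smallest was 0.140, for Col5a2 with array weights. The number at an unadjusted p under 0.05 ran from 5 to 10 with 1 mouse left out and was 7 with the replicate block. Deviations of same-numbered mice correlated at 0.14, -0.01, 0.15 and 0.08, and those of differently numbered mice at -0.16 to 0.11. The highest values, 0.15 and 0.14, were thus of same-numbered mice. The main fit did not take the numbers as pairs, and these correlations do not settle whether they are. Quantile normalization and median centring changed no count. Signs turned in genes with small differences or dim spots. Col28a1 became 0.0053 with an offset of 32. With the mean of all spots Col4a4 became -0.50 and Col6a6 0.18. With array weights Col2a1 became 0.13, Col6a1 -0.0163 and Col6a2 -0.0042. Without both mice numbered 4 Col2a1 became 0.11, Col4a5 0.0682, Col6a1 -0.0475, Col6a2 -0.0478 and Col9a2 0.16. With 1 mouse left out the ranges that crossed 0 were -0.155 to 0.174 for Col14a1, -0.347 to 0.384 for Col28a1, -0.467 to 0.238 for Col2a1, -0.108 to 0.245 for Col4a4, -0.0689 to 0.172 for Col6a1, -0.301 to 0.0234 for Col6a6 and -0.628 to 0.0319 for Col9a2. The cause was not tested. Over all genes, 45 calls became 80 and 88 with offsets of 16 and 32, 71 with dim genes left out, 118 with a trended robust variance, 100 with array weights, 5 with the replicate block, 17 without both mice numbered 4 and 17 to 38 with 1 mouse left out. Dim signal limits the 16 collagen genes under the floor.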
